A study of Mus musculus with 18 samples.

Results

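The genes described here are 10 transcripts of airway mucus and of the goblet cell program. They comprise the mucins Muc1, Muc4, Muc16, Muc20, Muc5ac and Muc5b, the transcription factors Spdef and Foxa3, the secretory pathway protein Agr2 and the trefoil peptide Tff2. They were taken from a list of symbols and matched by Entrez identifier to 10 of the 27179 genes counted. All 10 were among the 17989 genes that passed the filter on low counts. RNA was sequenced from 18 libraries of cells sorted from normal tissue of C57BL/6 mice, young adult males per the study's methods, with no treatment. BSCs (basal stem cells, NGFR-positive) and Non-basal cells (NGFR-negative) came from the tracheas of mice 1 to 3. Airway CD24hi cells (EpCAM-positive, CD104-positive, labelled as enriched in ciliated cells), Airway CD24lo cells (the same gate with low CD24, labelled as enriched in club cells), Alveolar cells (EpCAM-positive, CD104lo) and EpCAM-negative cells (labelled as non-epithelial) came from the lungs of mice 4 to 6. Each of the 6 populations had 3 libraries, 1 per mouse, and lung mice 4, 5 and 6 are replicates 1, 2 and 3 of their populations. A sorted population can hold several cell types, so fewer cells of a type and less RNA per cell cannot be told apart in these bulk values. Between trachea and lung, the organ, the mice and the cell type cannot be told apart either.

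Mucus on the airway surface is built on gel-forming mucins, very large secreted glycoproteins that are assembled in secretory cells, packed into granules and released onto the epithelium. Membrane-bound mucins instead stay anchored in the apical membrane, where they form a glycocalyx around cilia and microvilli. Spdef, an ETS-family factor, and Foxa3, a forkhead factor, promote the goblet cell program, Agr2 is a disulfide isomerase of the endoplasmic reticulum needed to fold and process gel-forming mucins, and Tff2 is a small peptide secreted together with mucus.

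The 10 genes lie at separate places in the mouse genome except for 2 pairs of mucin neighbours (positions from RefSeq, GRCm38.p6; exons from GENCODE). Muc5ac (chr7:141788958-141819227) and Muc5b (chr7:141839059-141873089) lie on the plus strand, 19831 bases apart, and have 49 merged exons each. Muc4 (chr16:32735886-32782391, plus strand, 27 merged exons) and Muc20 (chr16:32777419-32797435, minus strand, 5 merged exons) point toward each other, and the genes overlap by 4973 bases. They share 627 exon bases, which is 5.33% of the exon bases of Muc4 and 15.6% of those of Muc20. Whether counting used the strand is not given in the sources used here, so reads on those shared bases could have been split between the genes. The other 8 members shared no exon base with another gene. Muc16 (chr9:18495445-18674821, minus strand) was counted over a length of only 1032 bases, 3.92% of its 26350 exon bases in GENCODE, so its level per length rests on a small part of the gene. Muc1 lies at chr3:89229056-89233381 (plus strand), Spdef at chr17:27714446-27731003 and Tff2 at chr17:31141062-31144282 (both minus strand), Agr2 at chr12:35992925-36004081 (plus strand) and Foxa3 at chr7:19013283-19023539 (minus strand).

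RefSeq promoter sequence was at hand for 7 of the 10 genes (Muc1, Muc4, Muc16, Muc20, Spdef, Agr2 and Foxa3). The 250 bases before the RefSeq transcription start were searched on both strands for the TATA box TATAAA, for the forkhead motifs TGTTTAC and TATTTAC, which Foxa3 and its relatives can bind, and for the ETS core CCGGAT preferred by Spdef. TATAAA was found in Muc1, Muc4 and Foxa3, that is 3 of 7, against 12.4% of 32851 mouse promoters of the same length. A forkhead motif was found in Muc20 and Spdef, 2 of 7, against 5.76% of all promoters. The core CCGGAT was found in 0 of 7 and in 4.94% of all promoters. A match is a run of letters and not a measured binding site. The 4 sequences below are shown because they hold these matches in the membrane mucins Muc1 and Muc4, in Muc20, which overlaps Muc4, and in the regulator Spdef. They run 5′ to 3′ on the strand of the gene, with the motif in capitals. They cover chr3:89228806-89229055 for Muc1 (plus strand), chr16:32735636-32735885 for Muc4 (plus strand), chr16:32797436-32797685 for Muc20 (minus strand) and chr17:27728952-27729201 for Spdef (minus strand, a start that lies inside the gene's RefSeq span).
Muc1: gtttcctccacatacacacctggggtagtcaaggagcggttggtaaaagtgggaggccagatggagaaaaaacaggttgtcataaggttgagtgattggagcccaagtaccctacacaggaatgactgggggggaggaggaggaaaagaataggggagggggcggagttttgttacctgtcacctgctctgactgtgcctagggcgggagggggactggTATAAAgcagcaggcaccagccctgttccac
Muc4: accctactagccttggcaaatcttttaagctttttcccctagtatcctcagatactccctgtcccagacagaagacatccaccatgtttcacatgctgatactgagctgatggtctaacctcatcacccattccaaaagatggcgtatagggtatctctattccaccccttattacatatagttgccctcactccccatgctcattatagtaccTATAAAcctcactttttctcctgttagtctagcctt
Muc20: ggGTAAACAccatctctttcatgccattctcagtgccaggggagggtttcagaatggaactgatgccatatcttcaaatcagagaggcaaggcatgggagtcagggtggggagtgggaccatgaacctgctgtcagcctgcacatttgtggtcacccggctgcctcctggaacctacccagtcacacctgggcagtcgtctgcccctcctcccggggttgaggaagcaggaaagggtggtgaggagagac
Spdef: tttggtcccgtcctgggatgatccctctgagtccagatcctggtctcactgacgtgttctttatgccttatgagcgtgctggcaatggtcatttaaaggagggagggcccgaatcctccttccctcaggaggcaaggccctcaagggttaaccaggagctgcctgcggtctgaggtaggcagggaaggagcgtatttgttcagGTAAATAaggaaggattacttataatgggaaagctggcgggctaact
The first base of TATAAA lay 31 bases before the start of Muc1 and 36 bases before that of Muc4. The forkhead match read on the opposite strand, so that the printed strand shows its reverse complement. It began 248 bases before the start of Muc20 and 47 bases before that of Spdef.

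Depth was 29317215 to 32993621 counted reads in the tracheal libraries and 9811503 to 13208897 in the lung libraries, so a low level rests on fewer reads in lung. The 5 marker lists given next were each highest in the population with the matching label. The 5 basal markers summed to 8006 to 8677 CPM (read counts scaled to library size) in BSCs and 2073 to 2724 in Non-basal cells, and the 5 ciliated markers to 3379 to 3442 in CD24hi and 274 to 594 in CD24lo cells. The 4 club markers reached 246051 to 344582 CPM in CD24lo cells, 61871 to 68837 in Non-basal cells and 37757 to 49718 in CD24hi cells. Alveolar type 2 markers took 176399 to 195984 CPM in Alveolar cells, and mesenchymal markers 20496 to 21557 in EpCAM-negative cells. Every gene of these 5 lists had reads in every population. Other markers did not follow the gates as closely. Endothelial markers summed to 373 to 670 CPM in CD24lo and 148 to 453 in CD24hi cells, beside 331 to 527 in EpCAM-negative cells. Alveolar type 2 markers summed to 9885 to 11370 CPM in CD24lo cells.

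Levels were taken as RPKM, a read count scaled by the deposited gene length and by the TMM-scaled library size, which allows levels of different genes to be compared. They were set in order over the 6 populations, and neighbours in that order were compared with edgeR's quasi-likelihood test over all 17989 genes (adjusted p under 0.05). Of the 50 pairs of neighbours over the 10 genes, 37 were distinguished. A share over all genes was not computed for such pairs. In the 8 comparisons given below, 48.2% to 68.4% of all genes were called. Non-basal cells had the highest mean of 6 genes (Muc4, Muc16, Muc5b, Spdef, Agr2, Foxa3), CD24lo cells that of 3 (Muc20, Muc5ac, Tff2) and Alveolar cells that of 1 (Muc1). EpCAM-negative cells were lowest for 6 genes and Alveolar cells for 4.

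**Figure D1:**
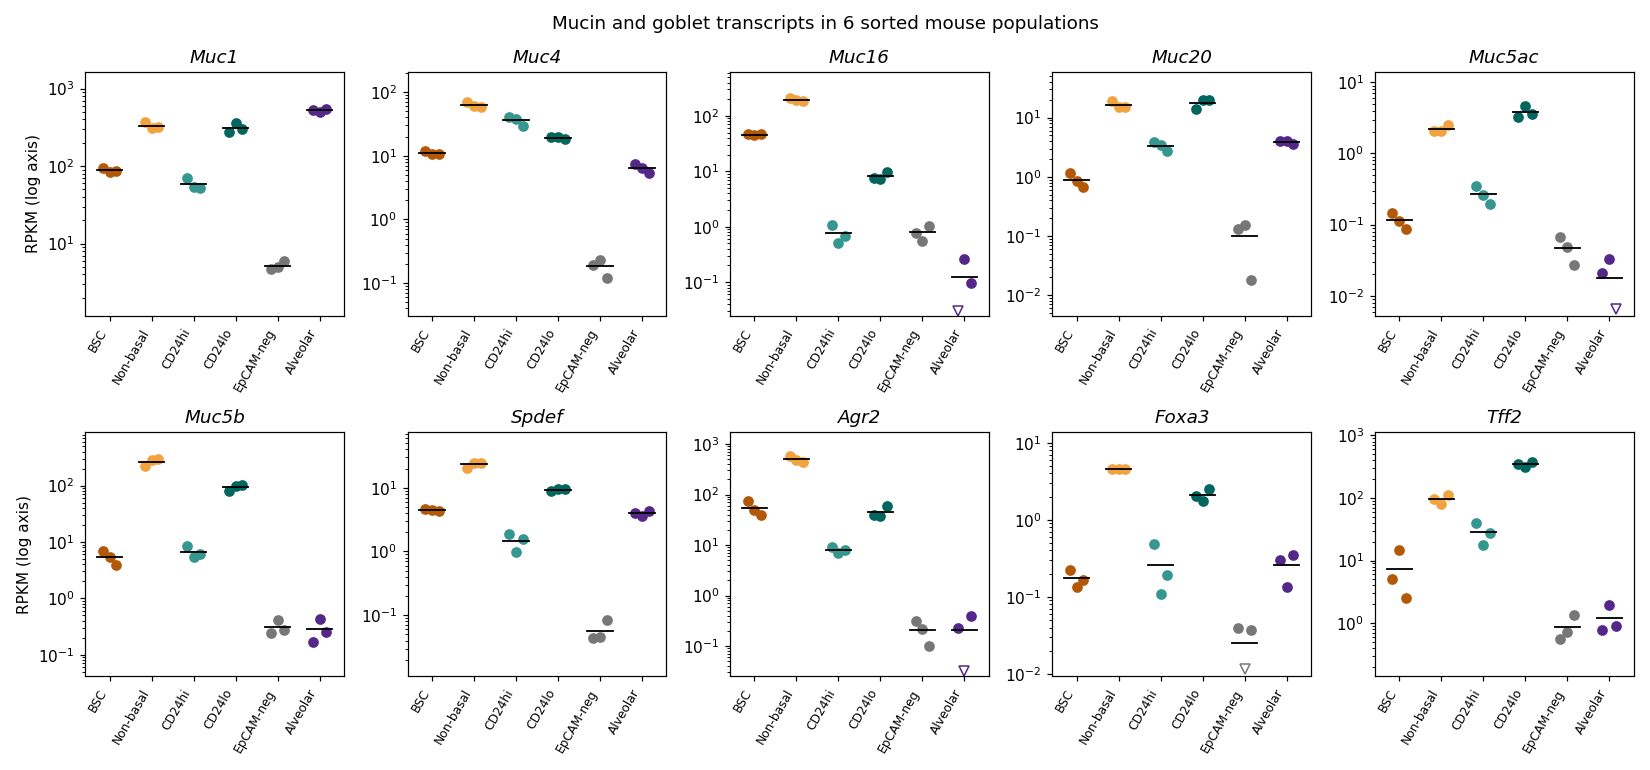
RPKM of the 10 genes on a log axis in the 6 populations, with 1 point per library, the bar at the mean of 3 libraries, and open triangles at the foot of a panel for libraries with no read. Non-basal or CD24lo cells lead in every panel except Muc1, where the 3 Alveolar libraries lie highest at 502 to 548 RPKM.

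Muc5b, the gel-forming mucin that dominates healthy mouse airways, had 225, 281 and 297 RPKM in the Non-basal libraries of mice 1, 2 and 3, while the CD24lo libraries of mice 4, 5 and 6 had 81.1, 96.8 and 102 RPKM. In the other airway populations it reached 8.44, 5.34 and 5.99 RPKM in CD24hi cells and in BSCs 7.03, 5.35 and 3.83 RPKM. The Non-basal libraries lay above all others, the CD24lo libraries came next, and the CD24hi and BSC libraries overlapped (edgeR adjusted p = 0.313). EpCAM-negative cells had 45, 75 and 54 reads and Alveolar cells 28, 69 and 37 reads, which also overlapped (log2 difference 0.15 ± 0.34 SE, edgeR adjusted p = 0.731). Between Non-basal and CD24lo cells the difference was 2.87-fold (log2 fold change 1.52 ± 0.25 SE, edgeR adjusted p = 7.59e-05).

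Muc5ac, the gel-forming mucin that is induced in mucous metaplasia, stood low everywhere and was highest in CD24lo cells, with 3.23, 4.68 and 3.61 RPKM (267 to 405 reads). Non-basal cells had 2.06, 2.09 and 2.54 RPKM. These groups did not overlap, and the level in Non-basal cells was 1.72-fold lower (log2 fold change -0.78 ± 0.20 SE, edgeR adjusted p = 0.00306), opposite in direction to Muc5b. CD24hi cells had 0.346, 0.261 and 0.194 RPKM and BSCs 0.147, 0.114 and 0.0863 RPKM, without overlap (edgeR adjusted p = 0.00111). In EpCAM-negative cells 7, 5 and 3 reads were counted and in Alveolar cells 2, 3 and 0, and these were not distinguished (edgeR adjusted p = 0.130).

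Muc1, a membrane-bound mucin that also signals through its cytoplasmic tail, was highest in Alveolar cells. Alveolar cells had 533, 502 and 548 RPKM, Non-basal cells 369, 306 and 323, and CD24lo cells 275, 357 and 298. The Alveolar libraries lay above all others (log2 difference from Non-basal cells 0.67 ± 0.13 SE, edgeR adjusted p = 0.000188), and the Non-basal and CD24lo libraries overlapped (log2 difference 0.10 ± 0.13 SE, edgeR adjusted p = 0.523). BSCs followed with 95, 84.3 and 85.7 RPKM, CD24hi cells with 69.3, 54.1 and 52.5, and EpCAM-negative cells with 4.63, 4.91 and 5.89. Each of these last groups lay below the one before it without overlap.

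Muc4, a large membrane-bound mucin of the airway surface and a partner of the receptor ErbB2, was distinguished at all 5 steps of its order. Non-basal cells had 69.2, 59.5 and 59.3 RPKM, CD24hi cells 40.9, 37.6 and 29.7, and CD24lo cells 19.6, 19.6 and 18.5. BSCs had 12, 10.7 and 10.5 RPKM, Alveolar cells 7.43, 6.48 and 5.36, and EpCAM-negative cells 0.192, 0.234 and 0.122. It was the only member with a higher level in CD24hi than in CD24lo cells, and no groups overlapped.

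Muc20, a smaller membrane-bound mucin that binds the receptor Met, was highest in CD24lo cells (13.8, 19.5 and 19.7 RPKM) and Non-basal cells (19.0, 14.9 and 15 RPKM), which overlapped (log2 difference 0.12 ± 0.19 SE, edgeR adjusted p = 0.631). Alveolar cells had 3.99, 4.04 and 3.58 RPKM and CD24hi cells 3.82, 3.44 and 2.70, which also overlapped (edgeR adjusted p = 0.395). BSCs lay lower at 1.17, 0.858 and 0.666 RPKM, and EpCAM-negative cells had 7, 8 and 1 reads.

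Muc16, the giant membrane-bound mucin that carries the CA125 antigen and is also made by mesothelium, was higher in both tracheal populations than in any lung population. Its level per counted length was 208, 193 and 184 RPKM in the Non-basal and 47.1, 44.4 and 46.7 RPKM in the BSC libraries. The lung populations lay below both, with 7.67, 7.33 and 9.70 RPKM in CD24lo cells. Few reads were counted elsewhere, at 15, 7 and 9 in CD24hi cells, 10, 7 and 14 in EpCAM-negative cells and 0, 3 and 1 in Alveolar cells. The CD24hi and EpCAM-negative libraries overlapped (log2 difference 0.06 ± 0.35 SE, edgeR adjusted p = 0.882), and both lay above the Alveolar libraries. Of the 4 mesothelial markers, Msln was at 1242 ± 22.6 RPKM in Non-basal cells, 116 ± 12.4 in BSCs and 39.5 ± 11.8 in CD24lo cells (SD, n = 3). Upk3b, Wt1 and Lrrn4 were at or near 0 in trachea, with 1, 0 and 10 reads in all BSC libraries and 2, 7 and 7 in all Non-basal libraries, and these 3 were lower in Non-basal than in CD24lo cells.

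Spdef reached 20.6, 24.2 and 24.9 RPKM in the Non-basal libraries. CD24lo cells followed with 8.83, 9.64 and 9.53 RPKM. BSCs had 4.6, 4.45 and 4.38 RPKM and Alveolar cells 4.01, 3.63 and 4.26 RPKM. The highest Alveolar value lay just under the lowest BSC value, and the difference did not pass the test (log2 difference 0.18 ± 0.15 SE, edgeR adjusted p = 0.311). Under scaling by library size without TMM factors it did pass (log2 difference 0.58, edgeR adjusted p = 0.00221). CD24hi cells had 1.90, 0.975 and 1.55 RPKM, below the Alveolar cells, and EpCAM-negative cells had 1, 1 and 2 reads.

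Foxa3 was the lowest of the regulators, with 4.53, 4.53 and 4.57 RPKM in the Non-basal libraries, and CD24lo cells had 2.03, 1.73 and 2.54 RPKM. The Non-basal libraries lay 2.17-fold above the CD24lo libraries without overlap (edgeR adjusted p = 0.00137). Alveolar cells had 7, 3 and 7 reads, CD24hi cells 13, 3 and 5, and BSCs 16, 10 and 12 at their greater depth. These 3 populations overlapped and neighbours among them were not distinguished (edgeR adjusted p of 1.00 and 0.25). EpCAM-negative cells had 1, 0 and 1 reads.

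Agr2 was highest in trachea, with 576, 474 and 437 RPKM in Non-basal cells. BSCs had 74.2, 50.6 and 39.9 RPKM and CD24lo cells 39.3, 38.1 and 60.1 RPKM, which overlapped (edgeR adjusted p = 0.284). CD24hi cells had 9.04, 7.02 and 7.97 RPKM. EpCAM-negative cells had 3, 2 and 1 reads and Alveolar cells 2, 0 and 3, so both lay near the limit of detection and were not distinguished (edgeR adjusted p = 0.994).

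Tff2 instead was highest in lung, at 347, 317 and 377 RPKM in CD24lo cells against 97.1, 79.8 and 111 RPKM in Non-basal cells. The CD24lo libraries lay above the Non-basal libraries without overlap, by 3.62-fold (edgeR adjusted p = 0.000398). CD24hi cells had 40.3, 17.8 and 27.3 RPKM and BSCs 4.98, 14.7 and 2.47 RPKM, where the library of mouse 2 stood above the other 2. Counts were 4, 5 and 10 in EpCAM-negative cells and 5, 12 and 5 in Alveolar cells (edgeR adjusted p = 0.763).

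The first comparison set Non-basal against basal cells of the same tracheas. All 10 genes were higher in Non-basal cells. In this comparison 48.2% of all tested genes passed in either direction, 26.2% higher and 21.9% lower. The median log2 fold change was 3.44 for the members and 0.02 for all genes. Muc5b differed most, 49.5-fold (log2 fold change 5.63 ± 0.30 SE, edgeR adjusted p = 1.39e-10), followed by Foxa3 at 25.5-fold, Muc5ac at 19.2-fold and Muc20 at 18.1-fold. The membrane mucins Muc1 (3.77-fold), Muc16 (4.23-fold) and Muc4 (5.66-fold) differed least, together with Spdef (5.18-fold). Agr2 was 9.03-fold higher and Tff2 13.0-fold higher, and without the BSC library of mouse 2 the log2 fold change of Tff2 went from 3.70 to 4.68.

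Markers of other tracheal cell types differed in both directions. All 4 club, 5 ciliated and 3 tuft markers and both tested submucosal gland markers were higher in Non-basal cells. All 5 basal markers and both stratified luminal markers were lower, with Krt4 in BSCs at 140% to 192% and Krt13 at 317% to 454% of the Non-basal level of the same mouse. The summed ciliated markers were 195 to 317 CPM against 17.3 to 24.6 in BSCs, and the club markers 61871 to 68837 against 14373 to 16541. The gland markers summed to 7.30 to 23.9 CPM against 0.691 to 0.768, with 2 of 4 unread in BSCs. Their part in the difference was not tested.

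**Figure D2:**
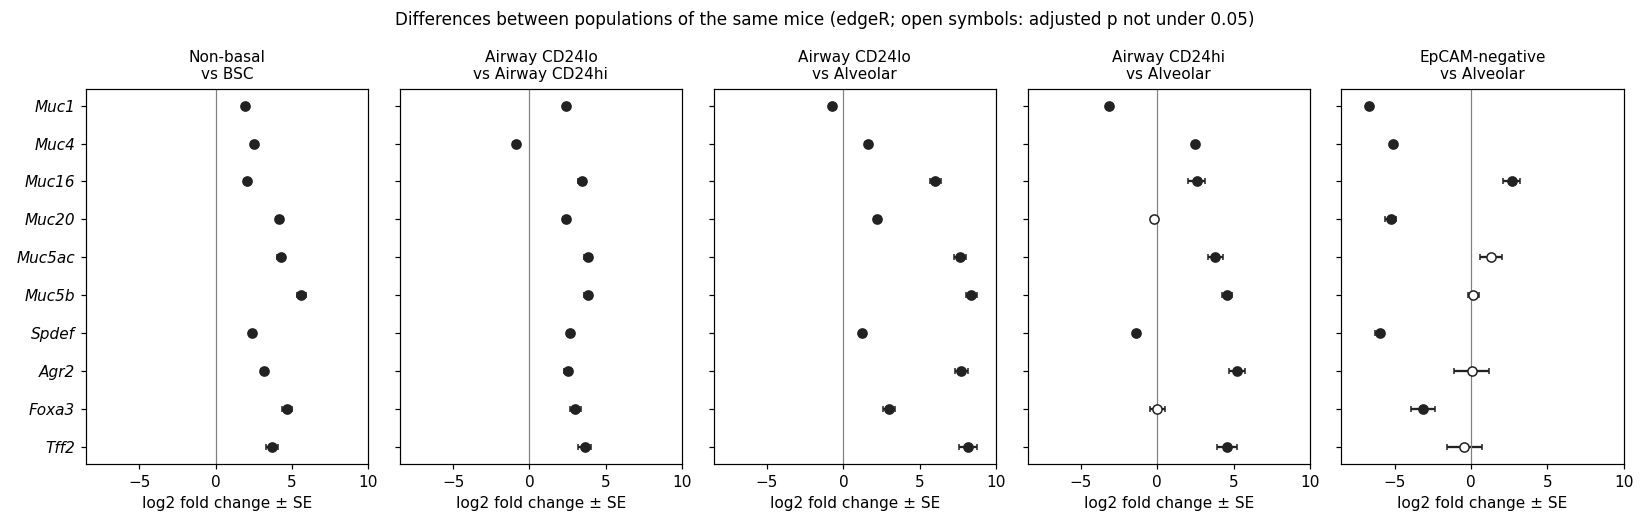
Log2 fold changes of the 10 genes, with SE, in the 5 comparisons between populations of the same mice (edgeR, 18 libraries, and filled symbols for an adjusted p under 0.05). All 10 points lie right of 0 in Non-basal against BSC, 9 of 10 do so in CD24lo against CD24hi, and the right-hand panel holds Muc16 at 2.66 and 5 genes below -3.

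The level kept in BSCs can be read within a mouse as a share of the Non-basal level. It was 25.8% to 27.5% for Muc1, 22.7% to 25.3% for Muc16, 17.4% to 18% for Muc4 and 17.6% to 22.3% for Spdef. For the gel-forming mucins it was lower, 1.29% to 3.13% for Muc5b and 3.40% to 7.13% for Muc5ac. Muc20 lay with the latter at 4.43% to 6.16%, apart from the other membrane mucins. Foxa3 kept 2.99% to 4.93%, Agr2 9.13% to 12.9% and Tff2 2.23% to 18.4%. For scale, the club marker Scgb1a1 kept 1.60% to 2.70% and Scgb3a2 14.9% to 17.1%, while Cyp2f2 kept 48.5% to 51.4%. The ciliated markers Foxj1 and Dnah5 kept 10.6% to 20.4% and 2.33% to 4.92%. Tff2 was the member whose share differed most between mice.

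**Figure D3:**
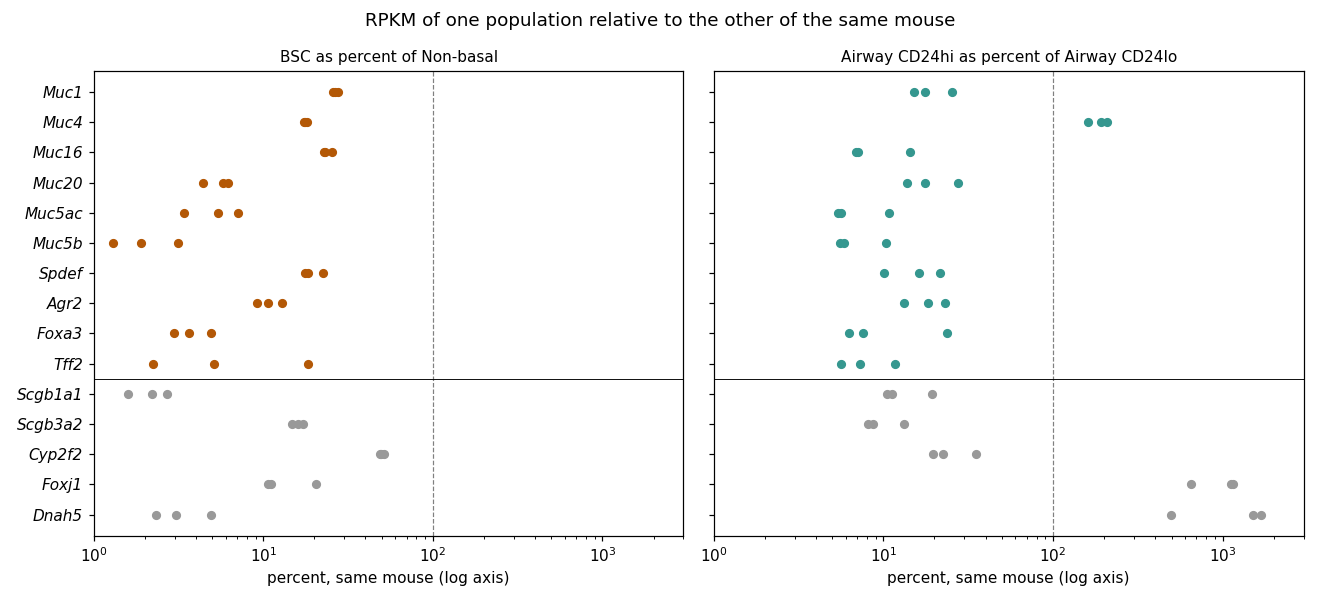
RPKM in one population as a percent of the other population of the same mouse, on a log axis, with 1 point per mouse, for the 10 genes and, below the line, 3 club and 2 ciliated marker genes. In trachea every member lies left of 100%, and in lung every member does except Muc4 at 160% to 208%.

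Within the lung airway, CD24lo and CD24hi cells of the same mice were compared. Of the 10 genes, 9 were higher in CD24lo cells and 1 was lower, where 55% of all genes passed in either direction. The median log2 fold change was 2.82 for the members and 0.06 for all genes. The secreted members differed most, with Muc5ac 14.3-fold, Muc5b 14.2-fold and Tff2 12.2-fold higher (log2 fold changes 3.84 ± 0.25, 3.82 ± 0.28 and 3.61 ± 0.41 SE). Muc16 was 10.7-fold higher, Spdef 6.31-fold, Agr2 5.70-fold, Muc20 5.32-fold and Muc1 5.29-fold. Foxa3 was 7.93-fold higher, and its log2 fold change went from 2.99 to 3.77 without the CD24hi library of mouse 4. Muc4 was 1.87-fold lower in CD24lo cells (log2 fold change -0.91 ± 0.14 SE, edgeR adjusted p = 3.98e-05).

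As shares within a mouse, CD24hi cells held 5.37% to 10.7% of the CD24lo level of Muc5ac, 5.52% to 10.4% of Muc5b and 5.60% to 11.6% of Tff2. They held 15.2% to 25.2% of Muc1 and 13.7% to 27.6% of Muc20. The club markers Scgb1a1 (10.5% to 19.2%), Scgb3a2 (8.07% to 13.2%) and Cyp2f2 (19.7% to 35.2%) were also lower in CD24hi cells of every mouse, and all 4 club markers and all 5 basal markers were higher in CD24lo cells. Basal markers summed to 244 to 415 CPM in CD24lo and 26.7 to 34.4 CPM in CD24hi cells. Also higher in CD24lo cells were 5 of 5 alveolar type 2, 4 of 4 mesenchymal, 3 of 4 mesothelial and 2 of 2 stratified luminal markers. Of 4 alveolar type 1 markers, 2 were higher and 1 lower. Of the endothelial markers 1 of 3 was higher, and of the gland markers 1 of 2 tested. No immune or tuft marker was called. Of all genes, 27.2% were higher and 27.8% lower. All 5 ciliated markers were lower in CD24lo cells, as Muc4 was, but by far more, since Foxj1 in CD24hi cells stood at 648% to 1148% of its CD24lo level. The part of the mixture of cell types in these differences was not tested.

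Against Alveolar cells of the same lungs, CD24lo cells had 9 genes higher and 1 lower, where 48.4% of all genes passed. The median log2 fold change was 4.5 for the members and 0.03 for all genes. Muc1 was the exception at 1.70-fold lower in CD24lo cells (log2 fold change -0.77 ± 0.13 SE, edgeR adjusted p = 7.00e-05). The gel-forming mucins, Agr2 and Tff2 stood over 100-fold apart: Muc5b by 334-fold (log2 fold change 8.38 ± 0.36 SE, edgeR adjusted p = 3.28e-12), with Tff2 at 8.16, Agr2 at 7.74 and Muc5ac at 7.65 on the log2 scale. Muc4 was 3.00-fold, Muc20 4.56-fold, Spdef 2.35-fold and Foxa3 7.96-fold higher in CD24lo cells. Several of these rest on few Alveolar reads. For Muc5ac, 970 reads against 5 gave a ratio of rates of 210 with a 95% exact interval of 89.5 to 647, which covers counting error only. Leaving out the Alveolar library of mouse 5 took Muc5ac from 7.65 to 8.34, leaving out that of mouse 6 took Agr2 from 7.74 to 8.51, and Muc16 went from 6.01 to 5.41 or 7.30 without mouse 4 or mouse 5.

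CD24hi cells against Alveolar cells gave 6 genes higher, 2 lower and 2 not called, where 61.9% of all genes passed. The 6 higher genes were Muc4 (5.61-fold), Muc16 (6.04-fold), Muc5ac (14.1-fold), Muc5b (23.6-fold), Agr2 (37.5-fold) and Tff2 (23.5-fold). Muc1 was 9.0-fold lower (log2 fold change -3.17 ± 0.14 SE) and Spdef 2.68-fold lower (log2 fold change -1.42 ± 0.18 SE) in CD24hi cells. Muc20 (log2 fold change -0.22 ± 0.22 SE, edgeR adjusted p = 0.395) and Foxa3 (0.0062 ± 0.50 SE, edgeR adjusted p = 1.00) overlapped between the groups. The same Alveolar libraries moved 3 of these values: Muc16 from 2.59 to 1.99 or 3.88, Muc5ac from 3.82 to 4.51 and Agr2 from 5.23 to 5.99 on the log2 scale. Alveolar type 2 markers were 2153 to 3490 CPM in CD24hi and 9885 to 11370 CPM in CD24lo cells, and their part in the Muc1 and Spdef levels there was not tested.

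EpCAM-negative cells, labelled as non-epithelial, were compared with Alveolar cells of the same lungs. Of the members 5 were lower, 1 was higher and 4 were not called, where 61.9% of all genes passed, 29.2% lower and 32.7% higher. The number of members called thus stood near the share of all genes called. Muc1 was 102-fold lower (log2 fold change -6.68 ± 0.17 SE, edgeR adjusted p = 1.11e-15), Muc20 38.4-fold, Muc4 35.3-fold and Spdef 64.2-fold lower. For Spdef, 232 Alveolar reads against 4 gave a ratio of 68.1 with an interval of 26.2 to 252, and for Foxa3 17 reads against 2 gave 9.98 with an interval of 2.37 to 89.0. Club markers in EpCAM-negative cells summed to 797 to 1314 CPM and in Alveolar cells to 1997 to 2533 CPM, and their part in the low levels of the secreted members was not tested.

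Muc16 alone was higher in EpCAM-negative cells, 6.31-fold (log2 fold change 2.66 ± 0.56 SE, edgeR adjusted p = 0.000500), on 31 reads against 4 (ratio 6.60, interval 2.33 to 25.7). The log2 fold change was 2.06 without the Alveolar library of mouse 4 and 3.95 without that of mouse 5. All 4 mesothelial markers (Msln, Upk3b, Wt1, Lrrn4) were also higher in EpCAM-negative cells, and they summed to 36.1 to 76.6 CPM against 4.14 to 7.77. Their part in the Muc16 level was not tested.

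Across organs, BSCs were compared with Alveolar cells. Here 6 genes were higher in BSCs, 2 were lower and 2 were not called, where 66.1% of all genes passed. The median log2 fold change was 1.70 for the members and -0.09 for all genes. Muc16 was 362-fold higher in BSCs (log2 fold change 8.50 ± 0.29 SE), on 5075 reads against 4 (ratio 382, interval 149 to 1401), and Agr2 257-fold higher, on 4449 against 5 (ratio 268, interval 115 to 825). Muc5b was 19.3-fold, Muc5ac 6.11-fold, Tff2 6.11-fold and Muc4 1.72-fold higher. Muc1 was 5.97-fold lower (log2 fold change -2.58 ± 0.13 SE) and Muc20 4.31-fold lower (log2 fold change -2.11 ± 0.22 SE) in BSCs. Spdef and Foxa3 did not pass (edgeR adjusted p of 0.311 and 0.295). Without the BSC library of mouse 2 the log2 fold change of Tff2 went from 2.61 to 1.63 and stayed past the threshold. Single Alveolar libraries moved Muc16 from 8.50 to 7.90 or 9.79, Muc5ac from 2.61 to 3.30 and Agr2 from 8.0 to 8.76.

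Non-basal cells of trachea were set against the CD24lo and CD24hi cells of lung in the same fit. Non-basal against CD24lo cells gave 6 genes higher, 2 lower and 2 not called, where 53.1% of all genes passed. The members' median was 1.22 on the log2 scale and that of all genes -0.04. Muc16 was 23.8-fold and Agr2 10.8-fold higher in Non-basal cells, ahead of Muc4 (3.25-fold), Muc5b (2.87-fold), Spdef (2.49-fold) and Foxa3 (2.17-fold). Tff2 and Muc5ac were the 2 lower genes, and Muc1 and Muc20 overlapped. Markers of other cell types differed in both directions between Non-basal and CD24lo cells. Lower in Non-basal cells were 4 of 5 ciliated, 2 of 4 club, 5 of 5 alveolar type 2 and 4 of 4 alveolar type 1 markers. Also lower were 4 of 4 mesenchymal, 3 of 3 endothelial, 1 of 3 immune and 3 of 4 mesothelial markers, with 1 mesothelial marker higher. Other lists ran higher in Non-basal cells. The basal markers summed to 2073 to 2724 against 244 to 415 CPM (4 of 5 higher), and the stratified luminal markers to 511 to 746 against 6.08 to 8.05 CPM (2 of 2 higher). The tuft markers summed to 56.4 to 79.7 against 0.460 to 1.08 CPM (3 of 3 higher), and the gland markers to 7.30 to 23.9 against 1.84 to 3.04 CPM (1 of 2 tested higher). BSCs had the second highest mean of Muc16 and of Agr2. For Agr2 they were not distinguished from CD24lo cells (edgeR adjusted p = 0.284). The part of these cell types in the differences of the members was not tested. Non-basal against CD24hi cells gave all 10 genes higher, where 68.4% of all genes passed and 31.5% were higher. The log2 fold changes ran from 0.80 for Muc4 to 7.99 for Muc16, with a median of 3.51 for the members and -0.08 for all genes. Foxa3 went from 4.10 to 4.89 there without the CD24hi library of mouse 4.

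The 6 mucins together took 0.486% to 0.569% of all counted reads in Non-basal cells and 0.209% to 0.226% in CD24lo cells. Alveolar cells gave 0.109% to 0.116%, CD24hi cells 0.0620% to 0.0838%, BSCs 0.0493% to 0.0609% and EpCAM-negative cells 0.00185% to 0.00219%. The mucin that supplied most of these reads differed. Muc5b held 63.7% to 72.7% of the mucin reads in Non-basal cells and 55.7% to 60.4% in CD24lo cells. Muc1 held 92.0% to 93.9% in Alveolar cells and 41.8% to 45.7% in BSCs, and Muc4 60.2% to 66.0% in CD24hi cells. These are shares of reads and so depend on the lengths counted.

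Within each pair of neighbouring genes the ratio of RPKM is free of library scaling. Muc5b to Muc5ac was 109, 134 and 117 in the 3 Non-basal libraries, 47.8, 47.0 and 44.4 in BSCs, and 25.1, 20.7 and 28.2 in CD24lo cells. In CD24hi cells it was 24.4, 20.4 and 30.9, overlapping CD24lo cells (exact permutation p = 1), although both genes were about 14-fold lower there. Non-basal and CD24lo cells did not overlap (two-sided exact permutation p = 0.1, the smallest that 3 against 3 can give). Muc4 to Muc20 was 10.7, 10.9 and 11 in CD24hi cells against 1.42, 1.00 and 0.939 in CD24lo cells, and 10.3, 12.5 and 15.7 in BSCs against 3.65, 4.00 and 3.95 in Non-basal cells. Neither pair of groups overlapped (exact permutation p = 0.1 each, the smallest that 3 against 3 can give). These permutations took all libraries as independent and ignored that populations of the same organ share mice. Alveolar cells had 1.86, 1.61 and 1.5. Some reads of the Muc4 and Muc20 pair may be shared, as given above.

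**Figure D4:**
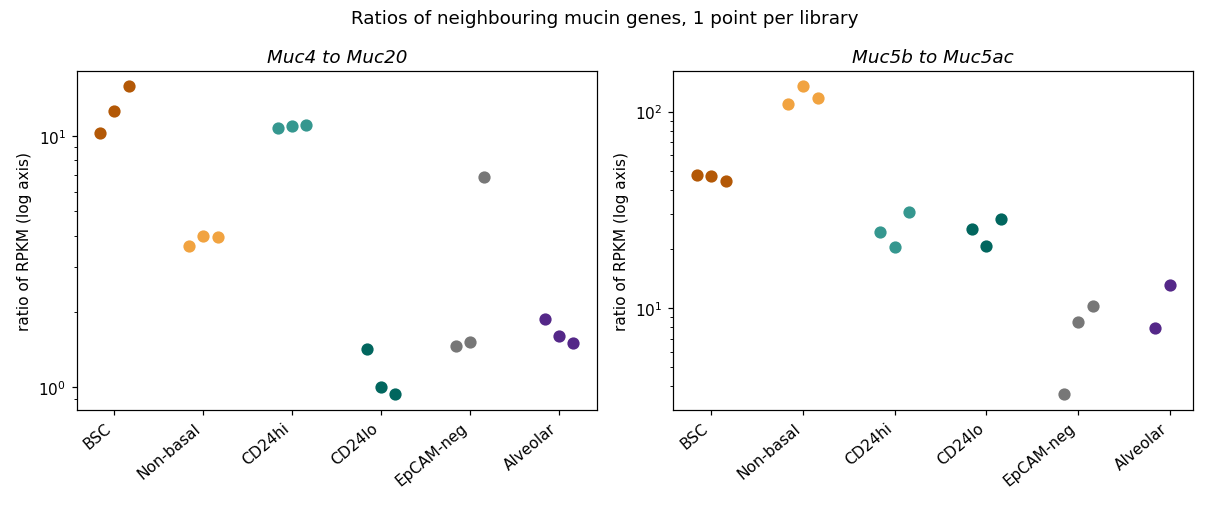
Ratio of RPKM of Muc4 to Muc20 and of Muc5b to Muc5ac on log axes, with 1 point per library in the 6 populations (1 Alveolar library with no Muc5ac read is not drawn). Muc4 to Muc20 splits CD24hi (10.7 to 11) from CD24lo (0.939 to 1.42), and Muc5b to Muc5ac puts Non-basal cells highest at 109 to 134.

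Genes that work around the mucins were taken as 5 wider lists. Of 10 goblet regulators, 5 were higher and 0 lower in Non-basal than in basal cells, among them Creb3l1, a secretory pathway transcription factor (log2 fold change 4.14 ± 0.16 SE), and the forkhead factor Foxa2 (4.00 ± 0.11 SE). These 5 of 10 called stood near the 48.2% of all genes called. In a fit of only the libraries compared, 8 were higher and 1 lower. Between CD24lo and CD24hi cells 8 were higher and 2 lower, where 55% of all genes were called. Ern2, the stress sensor of mucin-secreting epithelia, rose from 0.401 ± 0.130 RPKM in CD24hi to 5.27 ± 0.39 in CD24lo cells (SD, n = 3, 13.1-fold). Foxa2 went the other way from Spdef and Foxa3 in this comparison (log2 fold change -0.62 ± 0.09 SE). In trachea Ern2 stood at 35.7 ± 1.96 RPKM in Non-basal cells and 15.8 ± 0.44 in BSCs, and in Alveolar and EpCAM-negative cells a single read each was counted.

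Of the 8 goblet secreted proteins tested, 7 were higher and 0 lower in Non-basal cells than in BSCs (26.2% and 21.9% of all genes). Their log2 fold changes had a median of 4.75, with 0.02 over all genes. Bpifb1, a secreted antimicrobial protein of mucous cells, was 57.1-fold higher and the lectin Itln1 36.3-fold higher. In CD24lo against CD24hi cells 5 were higher and 2 lower (27.2% and 27.8% of all genes), with Clca1, a protease of mucus, 13.5-fold higher. Agr3, the paralogue of Agr2, was 7.81-fold lower in CD24lo cells (log2 fold change -2.97 ± 0.27 SE), opposite to Agr2 (2.51 ± 0.25 SE). Between Non-basal and CD24lo cells, 5 of 8 were higher in Non-basal cells and 0 lower (25.3% and 27.8% of all genes). Dmbt1, a scavenger protein of mucus, was at 74.8 ± 11.8 RPKM in Non-basal and 0.204 ± 0.064 RPKM in CD24lo cells (SD, n = 3).

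Of 19 enzymes of mucin O-glycosylation tested, 13 were higher and 3 lower in Non-basal than in basal cells, where 26.2% of all genes were higher and 21.9% lower. In CD24lo against CD24hi cells 6 were higher and 5 lower, near the background of 55% called. Fut2, which adds the terminal fucose of secretor-type glycans, was higher in Non-basal cells (25.2-fold) and in CD24lo cells (12.5-fold). Galnt6, one of the transferases that start O-glycans, was 18.3-fold higher in Non-basal cells than in BSCs but 8.15-fold lower in CD24lo than in CD24hi cells. Gcnt1, which builds the core 2 branch, was 19.5-fold higher in Non-basal than in CD24lo cells. Against Alveolar cells, CD24lo cells had 9 of the 19 higher and 6 lower, where 24.2% of all genes were called in each direction.

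Of 10 genes of mucin granule exocytosis tested, 4 were higher and 4 lower in Non-basal than in basal cells (48.2% of all genes called), and 4 were higher and 3 lower in CD24lo than in CD24hi cells (55% called). Against Alveolar cells, 0 were higher and 7 lower in CD24lo cells, 2 and 6 in CD24hi cells, 2 and 7 in EpCAM-negative cells and 1 and 7 in BSCs. Of all genes, 24.2%, 31.4%, 29.2% and 35.6% were lower in these 4 comparisons, which share the Alveolar libraries. Rab27a, a granule-tethering GTPase, stood at 79.2 ± 2.31 RPKM in Alveolar, 32.8 ± 4.81 in CD24lo and 7.89 ± 0.256 in CD24hi cells (SD, n = 3). Unc13d, a priming factor, was 5.39-fold lower in CD24lo than in CD24hi cells. Of the other mucins listed, 3 of 9 were tested (Muc2, Muc13, Muc15). Among these, 1 was higher and 1 lower in Non-basal cells than in BSCs (26.2% and 21.9% of all genes). Their highest mean level was 0.230 RPKM, that of Muc15 in BSCs.

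**Figure D5:**
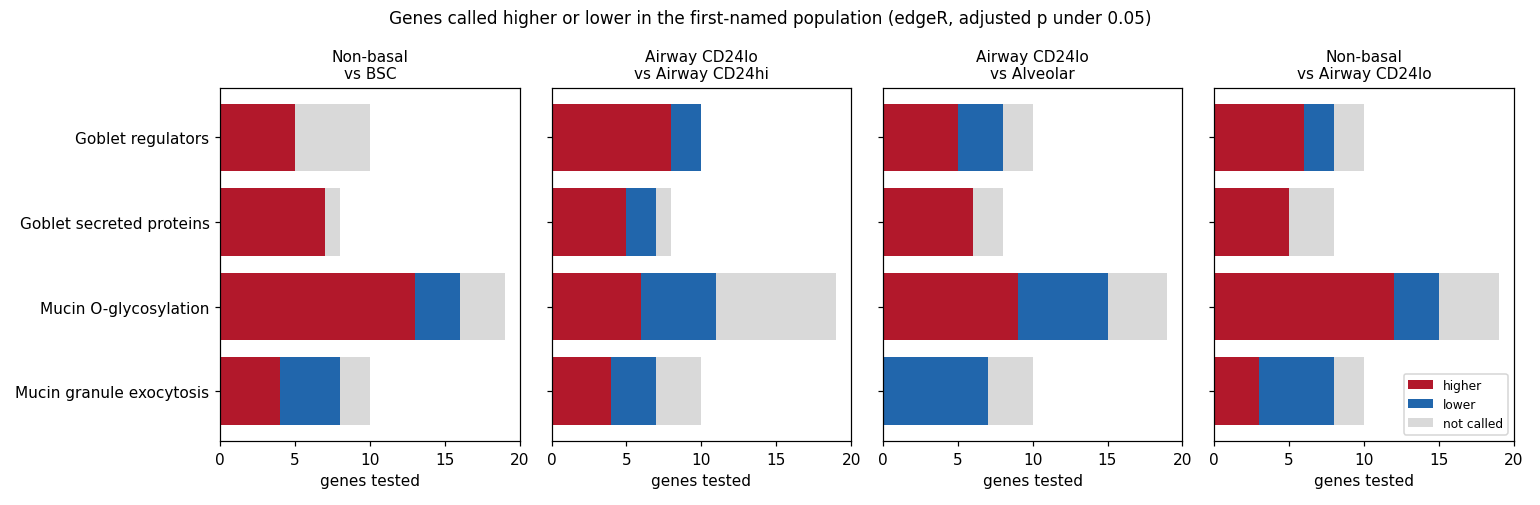
Number of genes called higher, lower or not called in the first-named population for the 4 larger lists in 4 comparisons (edgeR, adjusted p under 0.05). Secreted proteins run higher in Non-basal cells than in BSC (7 of 8, with 26.2% of all genes higher). The same holds for CD24lo against Alveolar cells (6 of 8, with 24.2% of all genes higher). Granule exocytosis genes show 0 higher and 7 lower in CD24lo against Alveolar cells, where 24.2% of all genes were lower.

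The genes whose pattern was most like that of a member were found by Pearson's r of log2 CPM over the 18 libraries, among the 14435 genes averaging 1 CPM or more. The libraries fall into 6 populations, so r reflects population means more than variation between mice, and no test was made. Muc5b was most like Scgb3a1 (r = 0.997), Lyzl4 and Clca1, and Muc5ac was most like Bpifb1 (r = 0.964), Fer1l4 and Cldn10. Muc1 was most like Tuba4a (r = 0.989), Muc4 most like Slc44a4 (r = 0.993) and Muc16 most like Akr1c18 (r = 0.987). Foxa3 was most like Fut2 (r = 0.972), Agr2 most like Acsl1 and Bpifa1 (r = 0.989 each) and Tff2 most like Asgr1 (r = 0.973). Among the members themselves, Muc5ac and Tff2 (r = 0.951), Muc5ac and Muc5b (0.950) and Muc5b and Tff2 (0.930) ran closest. Muc1 and Muc16 were the least alike (0.242).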

How the data were processed

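Single-end reads had been aligned by the authors to mm10 with Rsubread and assigned to Entrez genes with featureCounts and its built-in RefSeq annotation (versions not given in the sources used here), after base calling with bcl2fastq 1.8.4 per the labels. The deposited values are raw counts per gene with a gene length in bases, and 0 rows named no gene. The filter kept 17989 genes whose CPM exceeded 0.2 in 3 or more of the 18 libraries. TMM factors were applied, and the quasi-likelihood test of edgeR 4.0.16 (glmQLFit, glmQLFTest) was run in R 4.3.3, in 1 fit of all libraries with no block and Benjamini-Hochberg adjustment over genes, in 8 comparisons. SE is the absolute log2 fold change divided by the square root of F. RPKM was computed from the deposited length. A second deposited table repeats these counts for the series and was left out. Symbols came from the RefSeq gene table (25275 identifiers matched). Ratios of read rates carry exact 95% intervals, which cover counting error only.

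The members and lists were chosen with earlier results of these data known. From each list the text names genes among the 2 largest rises and 2 largest falls with an adjusted p under 0.05 and a mean of at least 1 CPM, and other values of those genes. Likeness names up to 3 genes per member, and is not reported here for Muc20 and Spdef. The pairs of members compared by ratio or by r were chosen after their values were seen. P-values measure the spread among these libraries. Replicates of a population came from separate mice by the labels. The mouse numbers pair populations within an organ, since the labels give 1 mouse to same-numbered samples. The deviations of paired libraries from their group means correlated at 0.34, 0.12 and 0.22 for Non-basal and BSC and at 0.28, 0.04 and 0.17 for CD24lo and CD24hi. No libraries of a group agreed within sampling noise (lowest chi-square per degree of freedom 3.67). Organs follow the sample labels, because the design text of the series names lungs alone. Alternatives were limma voom (limma 3.58.1), DESeq2 1.42.0, a filter at 1 CPM, no filter, RLE scaling, scaling by library size without TMM, the libraries compared alone, a replicate block, and each library left out. The fit was also run on simulated data. Far fewer genes differed there than here, so that run cannot judge the choice of scaling.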

Additional observations from a re-analysis of the deposited data

How the results depend on the processing

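Under 112 alternative settings of the 8 comparisons, the number of genes called stayed within 1.5 times its main value, and the number of members called was the same except in BSC against Alveolar, where it was 8 to 9. No member called in a comparison changed direction or lost its call under any alternative run. The extra call was Spdef with library size alone (log2 fold change 0.58). Of the values not called, 9 changed sign: in CD24hi against Alveolar, Foxa3 became -0.16 with limma voom, -0.78 without the CD24hi library of mouse 4 and -0.31 without the Alveolar library of mouse 5, and Muc20 became 0.096 with library size alone. For EpCAM-negative vs Alveolar: Agr2 became -0.37 without the EpCAM-negative library of mouse 4 and -0.55 without the Alveolar library of mouse 5, EpCAM-negative vs Alveolar: Muc5b became -0.11 without the EpCAM-negative library of mouse 5 and -0.13 without the Alveolar library of mouse 4, and Tff2 became 0.096 without the Alveolar library of mouse 5. Over all libraries left out in turn, these values ran up to 0.38 for Foxa3, 0.59 for Muc5b and 0.76 for Agr2, and down to -0.92 for Tff2. The cause was not tested, and each rests on few reads or on overlapping groups.

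With mouse as a replicate block, 8896 genes were called in Non-basal against BSC and 10036 in CD24lo against CD24hi (8668 and 9899 without), all 10 members stayed called in both, and the block changed no other call of a member. Between organs the numbers mark different mice. A block by number in a fit of the 6 libraries compared left 8, 8 and 10 members called in the 3 cross-organ comparisons. Scaling by library size alone moved the all-gene median (log2) from 0.02 to -0.31 in Non-basal against BSC, from 0.06 to -0.21 in CD24lo against CD24hi, from -0.01 to 0.29 in CD24hi against Alveolar, from 0.01 to 0.19 in EpCAM-negative against Alveolar, from -0.09 to 0.29 in BSC against Alveolar and from -0.08 to -0.34 in Non-basal against CD24hi. The split of higher and lower genes went from 4720 and 3948 to 2989 and 7780 in the first of these, from 4901 and 4998 to 3233 and 7002 in CD24lo against CD24hi, from 5479 and 5652 to 7285 and 3858 in CD24hi against Alveolar, from 5485 and 6410 to 7924 and 4363 in BSC against Alveolar and from 5659 and 6640 to 4192 and 8153 in Non-basal against CD24hi. Of the member orders, those of Muc16, Muc20 and Foxa3 changed at a pair that was not distinguished. With library size alone, the pairs distinguished went from 3 to 4 for Agr2 and from 4 to 5 for Spdef. The added Agr2 pair was BSC against CD24lo. Counts over the wider lists moved by over 1.5 times in 35 of 560 alternatives, mostly for the 3 other mucins. Libraries of 3 mice per organ limit precision, and Alveolar and EpCAM-negative levels of Agr2, Muc5ac, Muc16, Foxa3 and Tff2 rest on 14 or fewer reads per library.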
